A study of Mus musculus with 26 samples.

Results

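The comparison covers multipotent progenitors of mouse bone marrow sorted into an MPPFL- population (5 arrays) and an MPPFL+ population (3 arrays), 8 of the 26 Affymetrix arrays of the series. Arrays entered by their titles, which give the population and a replicate number. Another label spells the names MMPFL- and MMPFL+. The series sets 8 progenitor populations side by side, and its title places them in a study of DNA methylation during lineage commitment. Every MPPFL- and MPPFL+ array comes from male C57/Bl6 mice aged 2 months, with no treatment, transgene or deletion in the labels. Total RNA was extracted with Trizol and labelled with biotin. The labels do not say whether replicates were separate animals or pools, nor which surface proteins set the gates, and tests therefore weigh differences against array-to-array spread that may be purely technical.

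Multipotent progenitors lie just below the haematopoietic stem cell: they still form all blood lineages but have lost most of the capacity to renew themselves. FL is read here as Flt3, also called Flk2, a receptor tyrosine kinase whose ligand keeps early lymphoid and dendritic cell progenitors alive. In the usual account, multipotent cells with Flt3 on their surface have lymphoid and granulocyte-macrophage potential and have lost most potential for megakaryocytes and red cells, while cells without it stand closer to the stem cell. If the gates used Flt3, its transcript checks the labels and is no result.

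Values are the deposited log2 expression values, with a lowest value of 2.17 that was called the floor. Where every array of the lower group lay on the floor, or within 1 log2 unit of it, a fold change is a lower bound and is written as "at least". Each gene is represented by 1 probe set, and a difference is the MPPFL+ mean minus the MPPFL- mean on the log2 scale, with its standard error. It was called where limma's adjusted p, over all 18193 genes, was under 0.05.

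The Flt3 transcript was at 11.64, 10.71, 11.04, 10.69 and 10.90 on the MPPFL- arrays and at 13.43, 13.53 and 12.99 on the MPPFL+ arrays, without overlap. The log2 difference was 2.32 ± 0.36 (SE, adjusted p = 0.000148 by limma, as for all adjusted p-values below). Dntt and Ccr9, the other markers of the MPPFL+ side, separated the groups further, as given with their lists. Ptprc, the pan-leukocyte protein CD45, was between 13.56 and 13.91 on the 8 arrays, and the stem cell factor receptor Kit was between 13.09 and 13.75, so both populations carried the transcripts that define early haematopoietic cells. B cell factors Ebf1 and Pax5 and the thymocyte marker Il2ra were at the floor on all 8 arrays.

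On 2 arrays some genes stood apart from the rest of the group. MPPFL- replicate 1 was separated from the other 4 MPPFL- arrays, by a gap of over 0.71 of the group's range, in 99 of 2570 called genes that were not dim, against 18 to 45 for each of the others. It was lower than they were in Gata1 and several platelet genes and higher in Runx3, Ifngr1 and Txnip. MPPFL+ replicate 3 carried transcripts of mature neutrophils: S100a8, a calcium-binding protein of neutrophils, was at 11.29 there against 5.84 and 5.89 on the other MPPFL+ arrays and 6.68 to 8.86 on MPPFL- arrays, and Ngp, a neutrophil granule protein, was at 8.91 there against 3.13 and 3.42. The mean of 11 neutrophil markers was 6.13 on that array, 2.80 on both other MPPFL+ arrays and 2.76 to 3.44 in MPPFL-.

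Array controls also moved with the groups. The excess of 3' over 5' signal of actin, a measure of RNA integrity and labelling, was 2.55 to 2.92 in MPPFL+ and 3.12 to 4.08 in MPPFL-, without overlap (exact two-sided permutation p = 0.0179, the smallest that 56 assignments allow), with p = 0.0571 by the same exact test without MPPFL- replicate 2, 3, 4 or 5. The ribosomal RNA control was lower in MPPFL+ by 0.54 (exact permutation p = 0.0179), and without MPPFL+ replicate 3 the difference was -0.31 (exact permutation p = 0.0952). The Gapdh 3' excess (exact permutation p = 0.0714, or 0.0286 without MPPFL- replicate 1), the hybridization controls (exact permutation p = 0.143, or 0.0476 without MPPFL+ replicate 3) and the poly-A spike-ins (exact permutation p = 0.804) did not pass 0.05 over the 8 arrays. With the mean 3' excess as a covariate, 1672 genes were called higher and 748 lower. The part of RNA quality in single results was not tested beyond this fit.

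In all, 2886 of 18193 genes were called (15.9%), 1931 higher in MPPFL+ (10.6%) and 955 lower (5.25%). Among them, 93 were at least 8-fold higher and 42 at least 8-fold lower. The median log2 difference was 0.00 over all genes and 0.12 over the 9602 genes with a mean of at least 5 in either group. These medians, and the shares of 10.6% higher and 5.25% lower, are the background for every list that follows. Without MPPFL- replicate 1 the counts were 1762 higher and 914 lower, without MPPFL+ replicate 3 they were 1986 and 877, and without MPPFL+ replicate 2 the count of lower genes dropped to 595. Probe sets of 1 gene did not always move together: of 950 genes with at least 2 called probe sets, 226 had them in opposite directions. Below, other probe sets are given for some genes only, and where they are left out their agreement is not implied. Taken as single probe sets, 3175 were higher and 2317 lower, so the share of calls on the higher side was 57.8% against 66.9% for genes.

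**Figure D1:**
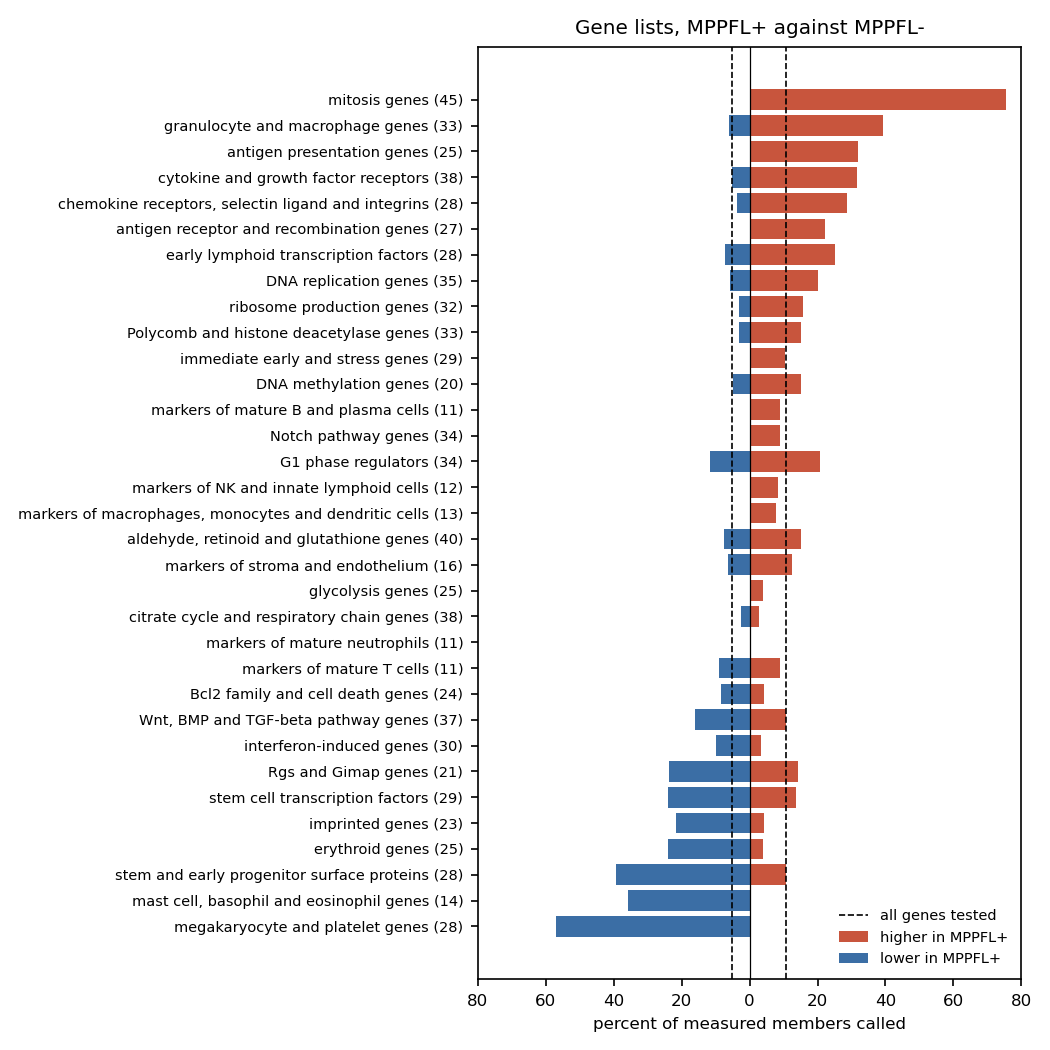
Share of the measured members of each gene list (number in brackets) called higher (red, right) or lower (blue, left) in MPPFL+ by limma at an adjusted p under 0.05, with dashed lines at the shares over all genes tested, 10.6% higher and 5.25% lower. Mitosis genes extend furthest to the right (34 of 45) and megakaryocyte and platelet genes furthest to the left (16 of 28).

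Dntt, Rag1, Rag2, Ighm and Blnk, genes of antigen receptor assembly and signalling, rose in MPPFL+, while most of their list was not called. Lymphocytes build their receptors by cutting and joining gene segments with the Rag1 and Rag2 recombinase, and Dntt, terminal deoxynucleotidyl transferase, adds bases at the joins. Of 27 measured genes of this list, 6 were called higher (22.2%, against 10.6% of all genes) and none lower, and 9 of the 27 were within 1 log2 unit of the floor in both groups. The signalling chain Cd79b, kept with the B cell markers, was at 8.93 to 9.26 in MPPFL- and at 9.10 to 9.24 in MPPFL+ and was not called.

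Dntt was at 8.36, 7.58, 7.71, 7.50 and 8.11 in MPPFL- and at 13.02, 13.15 and 13.08 in MPPFL+, a difference of 5.23 ± 0.21 (SE, adjusted p = 5.42e-12), or 37.6-fold. The transcript was thus well above the floor in both populations, and the MPPFL+ arrays differed from each other by less than the MPPFL- arrays did. Ighm, the constant region of the IgM heavy chain, which is transcribed before any rearrangement, was at 7.87, 8.50, 7.50, 7.07 and 7.37 in MPPFL- and at 12.05, 12.29 and 12.72 in MPPFL+ (difference 4.69 ± 0.25, adjusted p = 3.41e-10). Of its 10 other probe sets, 1 was called higher and none lower. The Ighm signal was not confined to the lymphoid path: it averaged 11.04 in common myeloid, 12.35 in granulocyte-macrophage and 12.61 in common lymphoid progenitors. Dntt averaged 11.18, 2.19 and 14.06 in the same populations.

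Both recombinase genes rose from a level near the floor. Rag1 was at 2.24, 3.10, 2.24, 2.17 and 2.50 in MPPFL- and at 4.41, 5.21 and 4.59 in MPPFL+, at least 4.88-fold higher (adjusted p = 0.000304). Rag2 was at 2.56, 2.21, 2.57, 2.57 and 2.71 against 4.36, 6.14 and 6.45, at least 8.73-fold higher (adjusted p = 8.76e-06). The MPPFL+ values remained far below those of common lymphoid progenitors (CLP), where Rag1 averaged 10.29 and Rag2 9.66 over 3 arrays. Blnk, an adaptor of the pre-B cell receptor, was at the floor on all MPPFL- arrays and at 4.61, 4.23 and 6.14 in MPPFL+ (at least 7.06-fold, adjusted p = 1.83e-07). The SD of Blnk was 1.01 in MPPFL+ but 0.00 in MPPFL-, common myeloid and granulocyte-macrophage progenitors. The shared spread thus makes its standard error (0.24) and adjusted p small.

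Among early lymphoid transcription factors, 7 of 28 were called higher (25.0%) and 2 lower. Satb1, a chromatin organizer of early lymphoid progenitors, was at 11.37, 10.89, 11.19, 10.69 and 11.06 in MPPFL- and at 13.34, 13.16 and 13.24 in MPPFL+ (difference 2.20 ± 0.13, adjusted p = 8.32e-10), and 3 of its 4 other probe sets were also called higher. Irf8, which directs monocyte, dendritic cell and B cell fates, was at 7.91, 8.14, 7.91, 7.86 and 8.16 against 10.62, 11.07 and 10.99 (difference 2.90 ± 0.33, adjusted p = 4.79e-06). For both genes the gap between the groups exceeded the range within either.

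Runx3, a factor of T and natural killer cells, was at 8.73 to 8.93 on 4 MPPFL- arrays, at 10.08 on replicate 1, and at 11.50, 11.61 and 10.73 in MPPFL+ (difference 2.17 ± 0.39, adjusted p = 0.000546). Ikzf1, the lymphoid zinc finger factor Ikaros, moved by less but held a narrow range: it was between 12.51 and 12.66 in MPPFL- and between 13.32 and 13.53 in MPPFL+ (difference 0.84 ± 0.18, adjusted p = 0.00245). The E protein Tcf3 rose by 1.27 ± 0.31 (adjusted p = 0.00699), with both of its other probe sets called higher, and Tox, a factor of T cell development, by 1.12 ± 0.21 (adjusted p = 0.000741). Sox4 was 0.99 ± 0.19 higher on its chosen probe set (adjusted p = 0.00111), but none of its 7 other probe sets was called and the call was lost with the mean of all of them.

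The factors called lower were Gata3, which specifies T cells and is also active in stem cells, and the Ikaros relative Ikzf2. Gata3 was between 6.87 and 7.30 in MPPFL- and at 6.51, 5.97 and 5.16 in MPPFL+ (difference -1.18 ± 0.28, adjusted p = 0.00582). Neither call held without MPPFL+ replicate 3, and that of Ikzf2 did not hold without MPPFL+ replicate 2 or with the 3' excess as a covariate. Myb, needed by all early progenitors, was between 14.77 and 15.04 on the 8 arrays and was not called on that probe set, while both of its others were called higher.

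Notch1, the receptor that commits progenitors to the T lineage, was at 10.71, 9.63, 10.25, 9.98 and 10.32 in MPPFL- and at 12.65, 12.82 and 12.22 in MPPFL+, without overlap (difference 2.39 ± 0.25, adjusted p = 2.05e-06). Few other genes of the pathway were called: 3 of 34 were higher (8.8%, beside 10.6% of all genes) and none lower, but 7 were higher and 1 lower with the mean of the probe sets, and 5 higher after quantile normalization or with 11 arrays fitted. Besides Notch1 these were Dtx4, a Deltex ubiquitin ligase (difference 1.75 ± 0.28, adjusted p = 0.000218), and Itch, whose call was lost without MPPFL- replicate 2 or 4 or MPPFL+ replicate 1 or 2, and which had 1 other probe set called lower. Notch2 was between 12.50 and 12.81 on the 8 arrays. Without MPPFL+ replicate 3 the list held 6 higher calls and 1 lower.

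Receptors through which progenitors read cytokines were called higher in 12 of 38 cases (31.6%) and lower in 2, with a median difference of 0.25, and without MPPFL+ replicate 2 the count of higher calls was 8. Csf1r, the macrophage colony-stimulating factor receptor, was at 7.11, 7.69, 6.56, 7.03 and 7.29 in MPPFL- and at 9.67, 10.27 and 9.41 in MPPFL+ (difference 2.65 ± 0.37, adjusted p = 4.58e-05), and both of its other probe sets were called higher. Csf3r, the granulocyte colony-stimulating factor receptor, was between 9.67 and 10.10 against 11.21, 11.06 and 11.44 (difference 1.34 ± 0.18, adjusted p = 4.14e-05). Receptors for growth factors of both the macrophage and the granulocyte lineage thus had higher transcript levels in the same population as the lymphoid genes.

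Ifngr1, the ligand-binding chain of the interferon gamma receptor, was at 6.84 to 7.16 on 4 MPPFL- arrays, 8.48 on replicate 1, and 10.76, 10.72 and 9.93 in MPPFL+ (difference 3.17 ± 0.37, adjusted p = 5.64e-06). The interleukin 1 receptor Il1r1 rose by 2.08 ± 0.31 (adjusted p = 9.93e-05) and the interleukin 6 receptor Il6ra by 1.94 ± 0.45 (adjusted p = 0.00487). Il7r, the receptor that defines lymphoid-committed progenitors, did not separate the groups: it was at 3.35, 3.52 and 7.55 in MPPFL+ against 2.77 to 4.35 in MPPFL- (difference 1.46 ± 0.64, adjusted p = 0.15), and its one high value was on MPPFL+ replicate 3.

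The receptors called lower were Tek and Tgfbr3. Tek, the angiopoietin receptor Tie2 that is associated with quiescent stem cells, was at 8.42, 8.28, 8.39, 8.30 and 8.40 in MPPFL- and at 4.66, 3.89 and 3.09 in MPPFL+ (difference -4.48 ± 0.23, adjusted p = 2.56e-10). The 5 MPPFL- arrays lay within a very narrow range while the MPPFL+ arrays were spread. Tgfbr3, the TGF-beta co-receptor betaglycan, was between 11.31 and 11.86 against 10.07, 9.47 and 8.70 (difference -2.23 ± 0.32, adjusted p = 5.83e-05).

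Receptors and adhesion molecules of homing were higher in 8 of 28 cases (28.6%), with a median difference of 0.43, and 1 was lower. Ccr9, the receptor for the thymic and gut chemokine Ccl25, had the largest rise of all genes named by the selection rule: it was at 2.33, 2.53, 2.33, 3.09 and 2.53 in MPPFL- and at 8.49, 9.57 and 8.69 in MPPFL+, at least 81.9-fold higher (difference 6.36 ± 0.49, adjusted p = 4.36e-08). This holds for the chosen probe set of Ccr9. Of its 4 other probe sets, 1 was called higher and none lower. Cxcr4, which holds progenitors in the marrow niche, was between 8.41 and 8.70 in MPPFL- and at 11.09, 13.49 and 12.61 in MPPFL+ (difference 3.86 ± 0.53, adjusted p = 4.08e-05). Its MPPFL+ arrays were widely spread, yet the lowest of them was above all MPPFL- arrays.

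Integrin genes changed in both directions. Itgal, the alpha chain of the leukocyte integrin LFA-1, was at 7.46, 7.44, 7.11, 7.09 and 7.26 in MPPFL- and at 11.52, 11.60 and 10.64 in MPPFL+ (difference 3.98 ± 0.25, adjusted p = 3.09e-09). Its 1 other probe set was not called. Itgb7, whose product pairs with the alpha 4 chain in gut homing, rose by 1.68 ± 0.31 (adjusted p = 0.000844), and Itgb5 by 1.99 ± 0.29 (adjusted p = 6.47e-05) with all 3 of its other probe sets called higher. Itga4 was not called (difference -0.21 ± 0.20, adjusted p = 0.702), although 1 of its 4 other probe sets was called lower. The platelet integrin chains Itga2b and Itgb3 fell, as described with the megakaryocyte genes. Itga5, a fibronectin receptor chain, was the 1 lower call of the list, which was lost without MPPFL+ replicate 2 and with fewer populations in the fit.

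**Figure D2:**
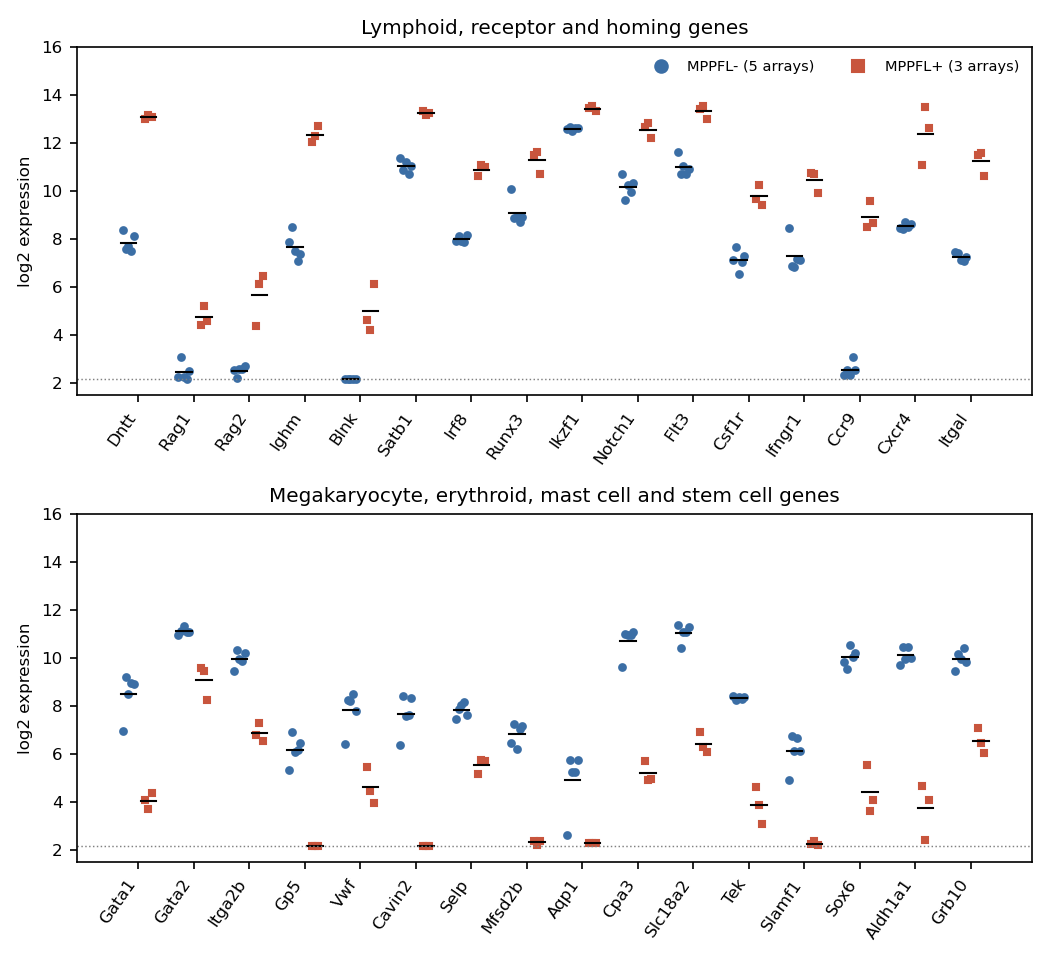
Log2 expression of 32 genes on each of the 5 MPPFL- arrays (blue circles) and 3 MPPFL+ arrays (red squares), with black bars at group means and a dotted line at the floor of 2.17. In the upper panel all MPPFL+ arrays lie above all MPPFL- arrays, with Dntt at 13.02 to 13.15 against 7.50 to 8.36. In the lower panel they lie below them, with Tek at 3.09 to 4.66 against 8.28 to 8.42.

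Stem cell transcription factors did not move as one group. Of 29 measured, 4 were called higher (13.8%, beside 10.6% of all genes) and 7 lower (24.1%, beside 5.25%), and the median difference was 0.08. With all probe sets of a gene averaged, 6 were called higher and 11 lower, with a median of -0.29, and with the 3' excess as a covariate the median was -0.09. Gata2, which maintains stem cells and mast cell progenitors, was at 10.97, 11.15, 11.33, 11.08 and 11.10 in MPPFL- and at 9.60, 9.49 and 8.26 in MPPFL+ (difference -2.01 ± 0.31, adjusted p = 0.000156), and its second probe set was also called lower. Tcf15, a factor of quiescent stem cells, fell by 1.37 ± 0.20 (adjusted p = 8.4e-05). Hoxb5, a marker of long-term stem cells, was also called lower (2.54 to 3.09 against 2.19, 2.26 and 2.17, adjusted p = 5.74e-06), but every array was within 1 log2 unit of the floor.

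Hoxa10, a homeobox factor, was at 3.52, 4.72, 2.48, 2.71 and 3.17 in MPPFL- and at 6.88, 7.04 and 6.06 in MPPFL+ (difference 3.34 ± 0.34, adjusted p = 1.17e-06), and Hoxa5 rose by 1.59 ± 0.34 (adjusted p = 0.00252). The 1 other probe set of each was not called. Hoxa9, the most studied of them in progenitors, was between 14.32 and 14.61 on the 8 arrays, and its partner Meis1 was not called on its chosen probe set (difference -0.27 ± 0.27, adjusted p = 0.768), while both of its others were called lower. Gfi1, a repressor that restrains stem cell cycling and directs neutrophils, rose by 1.46 ± 0.25 (adjusted p = 0.000373), and the forkhead factor Foxo3 by 0.75 ± 0.16 (adjusted p = 0.00222). The chosen probe set of Runx1 was lower by 2.27 ± 0.22 (adjusted p = 6.05e-07), but of its 5 others 1 was called higher and 1 lower, so no direction can be given for that gene.

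Surface proteins of stem and early progenitor cells were called lower in 11 of 28 cases (39.3%) and higher in 3, with a median difference of -0.18, and the count of higher calls was 1 without MPPFL+ replicate 2. Slamf1, the SLAM receptor CD150 used to isolate stem cells, was at 4.93, 6.76, 6.14, 6.70 and 6.15 in MPPFL- and at 2.26, 2.38 and 2.22 in MPPFL+, at least 14.4-fold lower (adjusted p = 6.05e-07). Cd48, a SLAM family marker of more mature progenitors, did not separate the groups (11.46 to 11.85 against 11.62, 11.70 and 12.18). Selp, the P-selectin of platelets and of some stem cells, fell by 2.30 ± 0.26 (adjusted p = 4.8e-06), and Thy1 by 1.72 ± 0.40 (adjusted p = 0.00494).

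Against this direction, Sdc4, a heparan sulfate proteoglycan, was at or next to the floor in MPPFL- (2.17 to 2.21) and at 7.87, 8.63 and 5.16 in MPPFL+, at least 32.8-fold higher (adjusted p = 2.68e-07). Cd34 was 0.90 ± 0.23 higher (adjusted p = 0.0106), a call lost without MPPFL+ replicate 2. Kit was not called (difference -0.06 ± 0.22, adjusted p = 1).

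Megakaryocyte and platelet genes had the largest share of lower calls among the lists. Of 28 measured, 16 were called lower (57.1%, against 5.25% of all genes) and none higher, with a median difference of -1.24. In bulk samples a smaller number of cells that carry a programme and less RNA of it per cell cannot be told apart. The mean of the list was 6.85 on MPPFL- replicate 1, 7.14 to 7.47 on the other MPPFL- arrays, and 5.37 to 5.70 in MPPFL+. Without MPPFL- replicate 1 the count of lower calls was again 16, and without MPPFL+ replicate 3 it was 12.

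Itga2b, the alpha IIb chain of the platelet fibrinogen receptor, was at 9.46, 10.36, 9.99, 9.87 and 10.21 in MPPFL- and at 6.81, 7.31 and 6.57 in MPPFL+ (difference -3.08 ± 0.37, adjusted p = 8.71e-06), and Itgb3, its partner chain from the surface protein list, fell by 2.77 ± 0.37 (adjusted p = 3.1e-05). Gp5, a subunit of the von Willebrand factor receptor of platelets, was at 5.33, 6.92, 6.10, 6.19 and 6.46 in MPPFL- and at 2.18 on all MPPFL+ arrays, at least 16.3-fold lower (adjusted p = 6.82e-10). Gp1bb, of the same receptor, was at 3.31 on MPPFL- replicate 1 and 6.02 to 7.04 on the others, against 2.17, 2.17 and 2.28. Receptor and ligand of this platelet adhesion step moved alike, since Vwf, the von Willebrand factor itself, was at 6.43 on MPPFL- replicate 1, 7.81 to 8.50 on the others, and 5.46, 4.47 and 3.96 in MPPFL+ (difference -3.21 ± 0.45, adjusted p = 5.16e-05).

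Cavin2, a caveola protein of platelets, was at 6.38 to 8.43 in MPPFL- and at the floor on all MPPFL+ arrays, at least 45.4-fold lower (adjusted p = 2.36e-09). Rab27b, a GTPase of platelet granule release, was between 7.52 and 8.65 against 4.05, 2.61 and 2.36 (difference -5.01 ± 0.27, adjusted p = 3.59e-10), and 2 of its 3 other probe sets were called lower. Plek, which is abundant in platelets and also in leukocytes, was not called (difference -0.28 ± 0.26, adjusted p = 0.701), nor was Fermt3 (difference 0.16 ± 0.18, adjusted p = 0.833).

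The Gp5 promoter is shown because Gp5 was the only called platelet gene with a promoter in the RefSeq table, of 13, whose last 100 bases before the start hold both a Gata site, read as AGATAA or TGATAA on either strand, and an Ets site, read as GGAAGT on either strand. Its stretch at chr16:30310782-30310881 (GRCm38.p6, minus strand), with these letters in capitals, reads 5′ to 3′ as follows.
Gp5: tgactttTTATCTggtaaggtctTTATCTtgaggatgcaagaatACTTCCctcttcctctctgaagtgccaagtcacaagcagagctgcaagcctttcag
Over 300 bases around the start (250 before, 50 after), a Gata site was present in 8 of 22 measured megakaryocyte genes with a promoter (36.4%), in 3 of the 13 called ones (23.1%), and in 12.8% of 14452 promoters of all genes tested. The site was therefore less frequent among the called members than among the whole list, and no test was made on these counts. Ets sites were present in 9 of the 22 (40.9%) against 26% of all promoters.

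Of 25 measured erythroid genes, 6 were called lower (24.0%) and 1 higher, 8 were within 1 log2 unit of the floor in both groups, and the median difference was -0.10. Gata1, the master factor of red cells, megakaryocytes and mast cells, was at 6.97, 9.23, 8.51, 8.96 and 8.92 in MPPFL- and at 4.10, 3.72 and 4.39 in MPPFL+ (difference -4.45 ± 0.36, adjusted p = 6.28e-08). Its lowest MPPFL- value was on replicate 1, still above every MPPFL+ array. Klf1, a red cell factor, was at 3.24 to 5.01 against 2.27, 2.27 and 3.24 (difference -1.84 ± 0.31, adjusted p = 0.00031), with 1 value tied between groups.

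Mfsd2b, the sphingosine-1-phosphate exporter of red cells and platelets, was at 6.46, 7.26, 6.22, 7.06 and 7.17 in MPPFL- and at 2.39, 2.22 and 2.39 in MPPFL+, at least 22.6-fold lower (adjusted p = 2.32e-09). Aqp1, the water channel of red cells, was at 5.26 to 5.77 on 4 MPPFL- arrays, at 2.64 on replicate 1, and at 2.32 on all MPPFL+ arrays. Its call (adjusted p = 0.00104) was lost when the 8 arrays were fitted alone. The erythropoietin receptor Epor stayed near the floor in both groups, and Alad, an enzyme of haem synthesis, was not called (difference 0.56 ± 0.31, adjusted p = 0.289). The 1 higher call, the anion exchanger Slc4a1, was lost under 9 alternatives.

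Mast cell, basophil and eosinophil genes were lower in 5 of 14 cases (35.7%) and higher in none, in every fit that left out 1 array. Cpa3, the carboxypeptidase of mast cell granules, was at 9.65, 11.02, 10.96, 10.97 and 11.09 in MPPFL- and at 5.72, 4.95 and 4.96 in MPPFL+ (difference -5.53 ± 0.41, adjusted p = 2.89e-08). Slc18a2, the vesicle transporter that loads serotonin and histamine, was at 10.44 to 11.39 against 6.94, 6.30 and 6.08 (difference -4.63 ± 0.41, adjusted p = 2.02e-07). Hdc, which makes histamine, fell by 2.60 ± 0.52 (adjusted p = 0.0015), and Ms4a2, a chain of the IgE receptor, by 2.06 ± 0.27 (adjusted p = 2.74e-05). The basophil protease Mcpt8 was not called (difference 0.70 ± 0.30, adjusted p = 0.13).

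**Figure D3:**
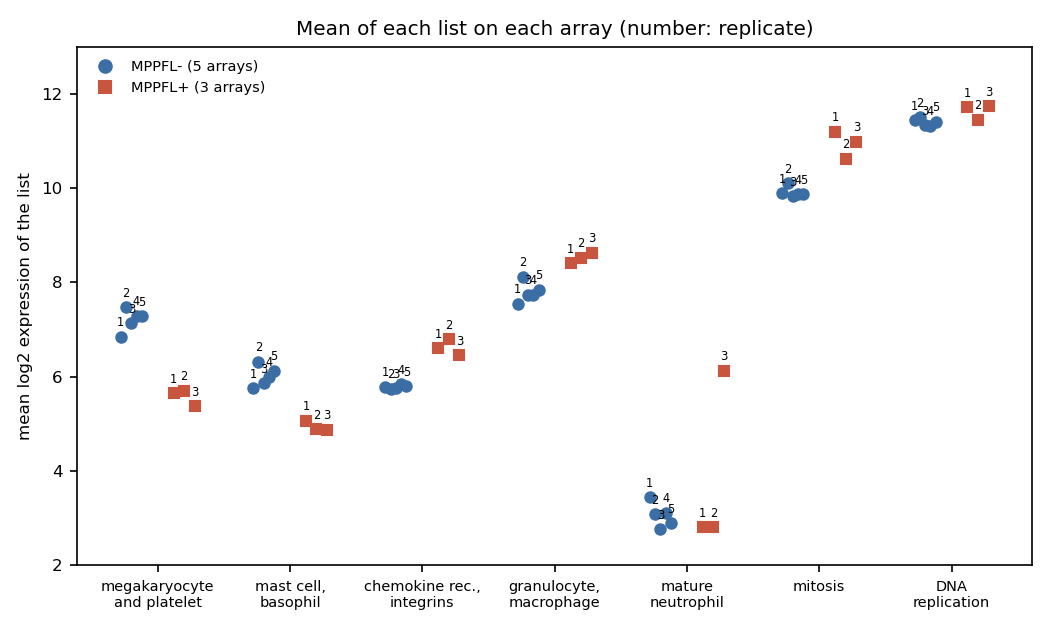
Mean log2 expression of the measured members of 7 gene lists on each array, blue circles for the 5 MPPFL- and red squares for the 3 MPPFL+ arrays, with the replicate number above each point. The mean of the megakaryocyte list lies at 5.37 to 5.70 in MPPFL+ and 6.85 to 7.47 in MPPFL-, that of mitosis genes at 10.63 to 11.20 against 9.83 to 10.11, and the neutrophil markers are high on MPPFL+ replicate 3 alone (6.13).

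Granulocyte and macrophage genes were called higher in 13 of 33 cases (39.4%) and lower in 2, with a median difference of 0.39. Since MPPFL+ replicate 3 carried neutrophil transcripts, the counts without it are given beside these: 12 higher and 3 lower, with a median of 0.26. Without MPPFL- replicate 1 they were 10 and 3. Cebpa, the factor that opens the granulocyte and macrophage path, was at 5.15, 4.86, 4.39, 3.83 and 3.83 in MPPFL- and at 6.23, 6.90 and 6.34 in MPPFL+ (difference 2.08 ± 0.27, adjusted p = 1.82e-05). Its relative Cebpb, active in monocytes and in emergency granulocyte production, was at 6.98, 6.47, 5.92, 6.29 and 5.92 against 9.60, 9.52 and 8.75 (difference 2.97 ± 0.41, adjusted p = 3.9e-05). For both, replicate 3 was not the highest MPPFL+ array, and the part of neutrophil transcripts in these differences was not tested.

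Cd33, an inhibitory lectin of myeloid cells, was near the floor in MPPFL- (2.26 to 3.02) and at 7.37, 8.19 and 6.64 in MPPFL+, at least 30.0-fold higher (adjusted p = 5.6e-08). Emb, the adhesion protein embigin, rose by 1.68 ± 0.24 (adjusted p = 5.39e-05). Spi1, which encodes PU.1, was 0.99 ± 0.30 higher (adjusted p = 0.0298), a call lost without MPPFL- replicate 1, MPPFL+ replicate 1 or MPPFL+ replicate 2. Mpo, the myeloperoxidase of primary granules, was between 13.54 and 14.34 in MPPFL- and at 14.06, 14.21 and 14.42 in MPPFL+, and was not called (difference 0.22 ± 0.54, adjusted p = 1).

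The genes called lower were Ms4a3 and Fcgr3. Ms4a3, found in granulocyte-macrophage progenitors and basophils, was at 5.34 on MPPFL- replicate 1, 6.55 to 7.83 on the others, and 3.56, 3.06 and 5.42 in MPPFL+, where the highest value was on replicate 3. The call (adjusted p = 0.000523) was lost when the 8 arrays were fitted alone. The Fc receptor Fcgr3 fell by 0.93 ± 0.20 (adjusted p = 0.00291).

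Markers of mature cells that a sort could carry over were called higher in 0.0% to 12.5% of each list, beside 10.6% of all genes. The share called lower was 0.0% to 9.1%, beside 5.25% of all genes. Of 11 T cell markers 1 was called higher and 1 lower, of 11 B and plasma cell markers 1 higher, of 13 macrophage and dendritic cell markers 1 higher, of 12 natural killer cell markers 1 higher, of 16 stroma and endothelium markers 2 higher and 1 lower, and of 11 neutrophil markers none. The means of these lists were 2.82 to 2.87 in MPPFL- and 2.69 to 2.93 in MPPFL+ for T cells, 4.33 to 4.40 and 4.63 to 4.79 for B cells, 3.28 to 4.45 and 3.96 to 4.12 for macrophages and dendritic cells, 2.65 to 2.79 and 2.71 to 2.94 for natural killer cells, and 3.51 to 3.65 and 3.63 to 3.78 for stroma. Of the neutrophil markers, 5 of 11 lay within 1 log2 unit of the floor in both groups. Most members of each other list did: 8 of 11 T cell, 8 of 11 B cell, 7 of 13 macrophage and dendritic cell, 10 of 12 natural killer and 12 of 16 stroma markers. Among those that changed, Sdc1, or CD138, rose by 2.95 ± 0.26 (adjusted p = 1.83e-07), Klrd1, or CD94, by 2.51 ± 0.36 (adjusted p = 6.86e-05), and Pecam1, an adhesion protein of endothelium and leukocytes, by 2.23 ± 0.33 (adjusted p = 8.42e-05). The macrophage list held 3 higher calls without MPPFL- replicate 4 and none without MPPFL+ replicate 2, the stroma list 1 without MPPFL+ replicate 1 or 2, and the B cell list 2 without MPPFL+ replicate 1 or 3. Without MPPFL+ replicate 1 or 2, 4 neutrophil markers were called higher, and without replicate 3, 1 was called lower. The macrophage markers C1qb, Vcam1 and Mrc1 varied among the arrays of both groups, with C1qb at 4.82 to 7.91 in MPPFL- and 4.87 to 6.43 in MPPFL+. The part of such cells in the results above was not tested.

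Mitosis genes had the largest share of higher calls among the lists. Of 45 measured, 34 were called higher (75.6%, against 10.6% of all genes) and none lower, and the median difference was 0.96. The difference was above 0 for 44 of the 45, and for 32 of the 34 called genes no MPPFL+ array overlapped an MPPFL- array. Lack of overlap was common among calls: of all 2886 called genes, 318 had arrays that overlapped. Leaving out 1 array at a time gave 26 to 36 higher calls and no lower one. The 26 came without MPPFL+ replicate 1, which had the highest mean of the list.

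Kif20a, a kinesin of cytokinesis, was at 8.89, 8.51, 8.12, 8.12 and 8.75 in MPPFL- and at 11.19, 10.50 and 11.20 in MPPFL+ (difference 2.48 ± 0.30, adjusted p = 1.04e-05). Ube2c, which supplies ubiquitin to the anaphase-promoting complex, was at 8.98, 9.31, 8.95, 9.17 and 8.65 against 11.43, 10.96 and 11.16 (difference 2.17 ± 0.27, adjusted p = 1.09e-05). Cdc25b, the phosphatase that starts mitotic entry, rose by 2.12 ± 0.41 (adjusted p = 0.00119) and Plk1, a mitotic kinase, by 1.83 ± 0.31 (adjusted p = 0.000355). Mki67, the proliferation antigen, was high in both groups and not called (difference 0.29 ± 0.23, adjusted p = 0.588), nor was the checkpoint gene Mad2l1 (difference 0.29 ± 0.17, adjusted p = 0.369).

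The same list offers a shared promoter feature. Many mitosis genes carry a cell cycle homology region, the letters TTTGAA close to the start, through which they are kept silent outside late cell cycle phases, together with a CCAAT box bound by the factor NF-Y. Both motifs were added after the differences had been seen, and either strand counted as a match. The 4 promoters shown are those with the largest rise among the 6 called mitosis genes that hold both motifs within 100 bases before the start, with the motif letters in capitals. Espl1, Kif11 and Cdc20 were named by this rule after their values were seen. The stretches, 5′ to 3′ on the strand of the gene in GRCm38.p6, are chr2:164769829-164769928 for Ube2c, chr15:102296193-102296292 for Espl1 and chr19:37376282-37376381 for Kif11 on the plus strand, and chr4:118437344-118437443 for Cdc20 on the minus strand.
Ube2c: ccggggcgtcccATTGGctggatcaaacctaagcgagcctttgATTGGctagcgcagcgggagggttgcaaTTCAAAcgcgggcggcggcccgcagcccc
Espl1: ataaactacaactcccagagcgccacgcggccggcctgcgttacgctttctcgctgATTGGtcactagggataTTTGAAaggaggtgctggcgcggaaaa
Kif11: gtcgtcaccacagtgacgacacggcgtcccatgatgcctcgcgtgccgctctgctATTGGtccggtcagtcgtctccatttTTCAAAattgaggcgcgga
Cdc20: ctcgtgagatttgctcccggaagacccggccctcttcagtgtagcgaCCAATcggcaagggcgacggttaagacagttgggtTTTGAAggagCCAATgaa
In these promoters the TTTGAA match begins 29 bases before the start in Ube2c, 27 in Espl1, 19 in Kif11 and 18 in Cdc20. A CCAAT match lies before it in each. Espl1, the separase that cuts cohesin, rose by 1.66 ± 0.22, Kif11, the motor that pushes spindle poles apart, by 1.65 ± 0.27, and Cdc20, the activator of the anaphase-promoting complex, by 1.36 ± 0.21.

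Over the 300 base windows, TTTGAA was present in 27 of 38 measured mitosis genes with a promoter (71.1%) and in 13.3% of 14452 promoters of all genes tested. CCAAT was present in 28 of the 38 (73.7%) against 38.2%. Both were present together in 21 of 29 called mitosis genes (72.4%), in 2 of 9 that were not called (22.2%) and in 5.4% of all promoters. DNA replication genes held both in 3 of 31 cases (9.7%). These are counts of letters in fixed windows, given with no test, and they do not show that a factor was bound.

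Of 35 measured DNA replication genes, 7 were called higher (20%, beside 10.6% of all genes) and 2 lower (5.7%, beside 5.25%), with a median difference of 0.18. Leaving out 1 array at a time gave 5 or 6 higher calls. With the 8 arrays alone 10 were called higher and none lower, and with 11 arrays 11 and 2. Mcm10, an origin firing factor, was between 9.11 and 9.81 in MPPFL- and at 10.72, 10.27 and 10.40 in MPPFL+ (difference 1.05 ± 0.17, adjusted p = 0.000182), and Orc1, a subunit of the origin recognition complex, rose by 1.16 ± 0.26 (adjusted p = 0.00362). Subunits of the Mcm helicase were not called on their chosen probe sets: Mcm5 differed by 0.17 ± 0.08 (adjusted p = 0.206), Mcm6 by -0.06 ± 0.14 (adjusted p = 1) and Mcm7 by 0.07 ± 0.11 (adjusted p = 1). Of the 2 other probe sets of Mcm5, 1 was called higher. The lower calls were Rfc3 and Prim1. Rfc3 lost its call with the mean of its probe sets and when the 8 arrays were fitted alone, and Prim1 lost it in 6 of the 8 fits that left out 1 array.

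**Figure D4:**
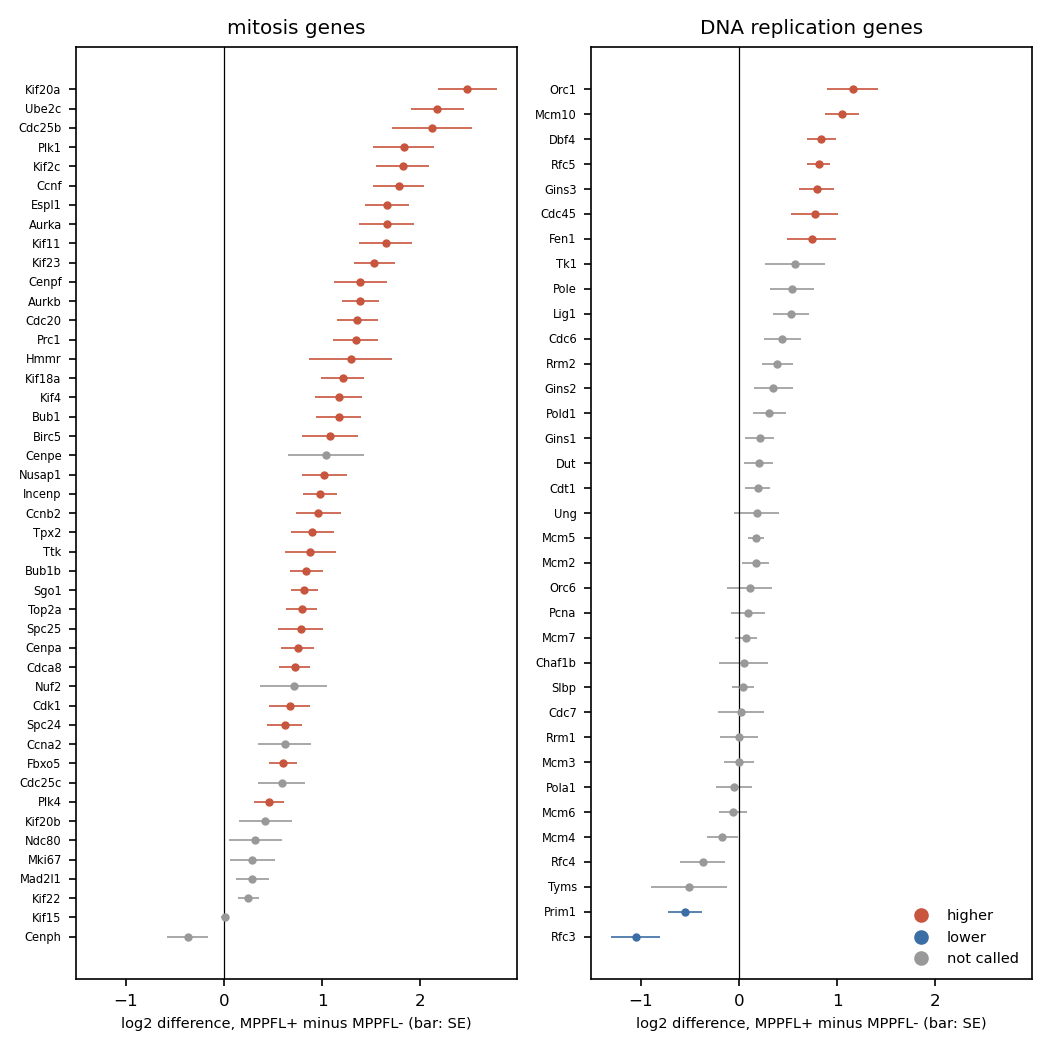
Log2 difference between MPPFL+ and MPPFL- (horizontal axis, bars are the standard error from limma) for each measured mitosis gene (left) and DNA replication gene (right), sorted by size, with red for genes called higher, blue for lower and grey for not called. On the left 34 of 45 genes are called higher and none lower, and on the right 7 of 35 higher and 2 lower.

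Among regulators of the G1 phase, 7 of 34 were called higher (20.6%, beside 10.6% of all genes) and 4 lower (11.8%, beside 5.25%). Cdk2, the kinase of S phase entry, rose by 1.45 ± 0.22 (adjusted p = 0.000138), E2f2, an activator of replication genes, by 1.64 ± 0.21 (adjusted p = 1.77e-05), and Cdk4 by 0.78 ± 0.14 (adjusted p = 0.000465) with both of its other probe sets called higher. The inhibitor Cdkn1a, or p21, was higher too: it was at 5.04 to 6.42 in MPPFL- and at 7.46, 7.55 and 8.86 in MPPFL+ (difference 2.27 ± 0.47, adjusted p = 0.00183). Cdkn1c, or p57, an inhibitor of quiescent stem cells, was at 6.79 to 7.63 in MPPFL- and at 6.88, 5.87 and 3.75 in MPPFL+, with an adjusted p of 0.0127 that was lost without MPPFL+ replicate 3. Of the other lower calls, Ccnd2 and Mycn were lost without at least 1 array of MPPFL+. Cdk6 differed by -0.42 ± 0.13 on its chosen probe set but had 1 of 2 others called higher, and was 0.60 higher with the mean of its probe sets (adjusted p = 0.00152), so no direction can be given for it. With the mean of the probe sets the list held 1 lower call, and without MPPFL+ replicate 1 or 2 the list held 2 lower calls.

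The maintenance and de novo DNA methyltransferases were not called. Dnmt1, which copies methylation after replication, was between 13.18 and 13.72 in MPPFL- and between 13.40 and 13.46 in MPPFL+ (difference -0.04 ± 0.25, adjusted p = 1). Dnmt3a differed by -0.02 ± 0.25 (adjusted p = 1), and 2 of its 4 other probe sets were called lower. Dnmt3b was at 12.23 to 12.40 against 10.90, 11.70 and 12.21 (difference -0.71 ± 0.30, adjusted p = 0.129), and its other probe set was called higher.

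Of 20 measured DNA methylation genes, 3 were called higher and 1 lower, and leaving out 1 array at a time gave 1 to 3 higher calls, with 1 without MPPFL- replicate 3, 4 or 5 or MPPFL+ replicate 1 or 2, and 1 or 2 lower. With the mean of the probe sets 1 was higher and 2 lower. Uhrf1, which brings Dnmt1 to newly copied DNA, was at 10.58 to 10.83 on 4 MPPFL- arrays, at 11.88 on replicate 1, and at 12.85, 12.60 and 12.32 in MPPFL+ (difference 1.61 ± 0.28, adjusted p = 0.000445), a call lost with the mean of its 2 probe sets. The dioxygenase Tet1 was at 10.22 on MPPFL- replicate 1, 8.53 to 9.15 on the others, and 10.96, 10.59 and 10.43 in MPPFL+, and its call (adjusted p = 0.0289) was lost in 6 of the 8 fits that left out 1 array. Tet2 was 1.08 ± 0.23 lower on its chosen probe set (adjusted p = 0.00238) and called higher on its other one, so no direction can be given, and Tet3 was near the floor on all arrays.

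Polycomb and histone deacetylase genes were called higher in 5 of 33 cases (15.2%, beside 10.6% of all genes) and lower in 1 (3.0%, beside 5.25%). There were 3 higher calls without MPPFL+ replicate 2, 8 without MPPFL+ replicate 3, and 4 lower calls with the mean of the probe sets. Cbx2, a reader subunit of Polycomb repressive complex 1, rose by 1.49 ± 0.28 (adjusted p = 0.000808), and Hdac3 was between 8.66 and 9.05 in MPPFL- and at 10.42, 10.44 and 10.40 in MPPFL+ (difference 1.57 ± 0.35, adjusted p = 0.00367). The methyltransferase Ezh2 was not called (difference -0.23 ± 0.13, adjusted p = 0.305). Mtf2, an accessory subunit of the same complex, fell by 0.92 ± 0.16 (adjusted p = 0.000462).

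Imprinted genes, which are read from 1 parental copy and have been linked to stem cell quiescence, were called lower in 5 of 23 cases (21.7%) and higher in 1, with 12 within 1 log2 unit of the floor in both groups. Grb10, an adaptor that damps growth factor signals, was at 9.46, 10.19, 9.97, 10.44 and 9.85 in MPPFL- and at 7.11, 6.49 and 6.06 in MPPFL+ (difference -3.43 ± 0.34, adjusted p = 8.22e-07). Neither of its 2 other probe sets was called. Phlda2 was at 6.70 to 7.96 against 2.86, 4.15 and 4.26 (difference -3.56 ± 0.25, adjusted p = 1.22e-08), and the noncoding RNA Meg3 at 3.85 to 5.00 against 2.68, 2.43 and 2.43, at least 3.69-fold lower (adjusted p = 5.59e-05). None of the 10 other probe sets of Meg3 was called. Igf2r, the receptor that removes insulin-like growth factor 2, went the other way, by 2.23 ± 0.50 (adjusted p = 0.00379).

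Wnt, BMP and TGF-beta pathway genes were called lower in 6 of 37 cases (16.2%, beside 5.25% of all genes) and higher in 4 (10.8%, beside 10.6%). Without MPPFL+ replicate 1 or 2 they were called higher in 2. Next to Tgfbr3, the activin receptor Acvr1b was at 11.39 to 12.19 in MPPFL- and at 10.65, 10.89 and 10.77 in MPPFL+ (difference -1.08 ± 0.19, adjusted p = 0.000546), and the Wnt receptor Fzd7 fell by 0.81 ± 0.18 (adjusted p = 0.00377). Axin1, a scaffold that limits Wnt signals, rose by 0.93 ± 0.19 (adjusted p = 0.00181). The main TGF-beta receptor Tgfbr2 was not called (difference -0.23 ± 0.15, adjusted p = 0.446), although 1 of its 2 other probe sets was called higher.

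Antigen presentation genes were higher in 8 of 25 cases (32.0%) and lower in none, with a median difference of 0.54. Cd74, the invariant chain of MHC class II, was at 5.81, 6.60, 5.51, 6.59 and 5.48 in MPPFL- and at 9.52, 9.39 and 9.15 in MPPFL+ (difference 3.36 ± 0.51, adjusted p = 0.000124). The class II chain H2-Eb1 rose by 2.33 ± 0.48 (adjusted p = 0.00187) and the class II protease Ctss by 1.85 ± 0.34 (adjusted p = 0.00068). Of the class I genes, H2-D1 was not called (difference 0.43 ± 0.25, adjusted p = 0.331) and B2m differed by 0.04 ± 0.15 (adjusted p = 1), although the peptide transporter Tap2 rose by 1.23 ± 0.27 (adjusted p = 0.00338).

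Interferon-induced genes were called higher in 1 of 30 cases (3.3%, beside 10.6% of all genes) and lower in 3 (10.0%, beside 5.25%). There was no lower call without MPPFL+ replicate 2, and there were 2 higher calls without MPPFL+ replicate 3. With the 8 arrays alone 4 were called higher and 2 lower, with 11 arrays 5 and 3, and with the mean of the probe sets 2 and 5. The higher one of the 30 was Bst2, or tetherin, at 6.37 to 7.50 in MPPFL- and 8.66, 8.79 and 8.60 in MPPFL+ (adjusted p = 0.000429). Of 29 immediate early and stress genes 3 were called higher (10.3%, beside 10.6% of all genes) and none lower. Only 1 was called higher without MPPFL- replicate 4 or MPPFL+ replicate 1 or 2, and none with the 3' excess as a covariate. Fos, which responds to handling within minutes, ranged from 10.40 to 14.11 within MPPFL- and was not called (adjusted p = 0.681).

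Housekeeping lists held few calls. Of 25 glycolysis genes 1 was called higher (4.0%, beside 10.6% of all genes). Of 38 genes of the citrate cycle and respiratory chain 1 was called higher and 1 lower (2.6% each, beside 10.6% and 5.25%). These counts depended on the fit: with the 8 arrays alone, glycolysis held 3 higher and 2 lower calls and the respiratory list 6 and 0, with 11 arrays 3 and 3, and 7 and 0, and with the mean of the probe sets 5 and 3, and 3 and 1. Without MPPFL+ replicate 3, 5 glycolysis genes were called higher, without MPPFL- replicate 1, 2 were, and without MPPFL+ replicate 1 the respiratory list lost its lower call. The median differences of these lists were 0.07 and 0.11. Ribosome production genes were called higher in 5 of 32 cases (15.6%, beside 10.6% of all genes) and lower in 1 (3.1%, beside 5.25%). The lower calls were 3 without MPPFL+ replicate 3 and 2 without MPPFL- replicate 1 or 2. With probe sets averaged the balance turned, to 2 higher and 4 lower with a median of 0.08 in place of 0.32, and with 11 arrays the counts were 9 and 4. Nop58, a core protein of small nucleolar particles, was the lower one (difference -1.31 ± 0.29, adjusted p = 0.00337).

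Bcl2 family and cell death genes were called higher in 1 of 24 cases (4.2%, beside 10.6% of all genes) and lower in 2 (8.3%, beside 5.25%). Bcl2, the survival factor, was at 10.46 and 9.77 on MPPFL+ replicates 1 and 2 but at 12.31 on replicate 3, inside the MPPFL- range of 12.03 to 12.53, and its call (adjusted p = 0.0302) was lost without either of the first 2. Mcl1, on which early progenitors depend, was not called (difference -0.18 ± 0.12, adjusted p = 0.487), although 1 of its 5 other probe sets was called higher. Without MPPFL+ replicate 1 no gene of the list was called, without MPPFL+ replicate 3 the count of higher calls was 3, without MPPFL- replicate 4 it was 2 with 1 lower, and without MPPFL- replicate 5 the list held 1 lower call. With the mean of the probe sets 4 were lower.

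Among Rgs and Gimap genes, which tune G-protein signals and lymphocyte survival, 3 of 21 were called higher and 5 lower. These are 14.3% and 23.8%, beside 10.6% and 5.25% of all genes. With the 8 arrays alone the counts were 5 higher and 6 lower. Rgs18, found in platelets and their progenitors, fell by 1.18 ± 0.15 (adjusted p = 1.33e-05) and the G-protein gamma chain Gng11 by 2.07 ± 0.35 (adjusted p = 0.00031). Gimap5 was at 8.54 to 9.36 in MPPFL- and at 7.45, 7.09 and 6.22 in MPPFL+ (difference -1.96 ± 0.26, adjusted p = 2.44e-05).

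Aldehyde, retinoid and glutathione genes were called higher in 6 of 40 cases (15%, beside 10.6% of all genes) and lower in 3 (7.5%, beside 5.25%). They were called lower in 1 case without MPPFL+ replicate 3 and in 5 with 11 arrays or averaged probe sets. Called lower in every fit was Aldh1a1, a retinaldehyde dehydrogenase whose activity is used to isolate stem cells and which showed the largest fall of the named genes. It was at 9.71, 10.46, 9.98, 10.49 and 10.00 in MPPFL- and at 4.70, 2.45 and 4.11 in MPPFL+ (difference -6.38 ± 0.36, adjusted p = 6.47e-10), or 83.0-fold lower. Its SD was 1.17 in MPPFL+ but 0.00 in CLP, so the shared spread can make its standard error small. Gsr, the glutathione reductase, rose by 1.95 ± 0.38 (adjusted p = 0.00127).

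Further genes were named only because they had the largest changes of all. Lower in MPPFL+ were Sox6, a factor of red cell maturation (9.54 to 10.55 in MPPFL- against 5.56, 3.65 and 4.11, adjusted p = 4.91e-08, with all 3 other probe sets called lower), and Tgm2, a transglutaminase (10.92 to 12.16 against 6.66, 7.88 and 7.95, adjusted p = 1.58e-06, with 3 of 5 others called lower). Neurl3, a ubiquitin ligase, was at 7.35 to 7.74 in MPPFL- and 2.47, 2.31 and 2.36 in MPPFL+, at least 36.2-fold lower (adjusted p = 4.82e-11). Fgf3, a growth factor, was at 6.83 to 8.38 against 2.97, 2.66 and 3.97 (adjusted p = 1.25e-06), and both of its other probe sets were called lower. Plxdc2 and Chic1 fell by 4.08 ± 0.42 (adjusted p = 1.35e-06) and 5.06 ± 0.18 (adjusted p = 2.55e-12). Both other probe sets of Plxdc2 were called lower, and neither of the 2 others of Chic1 was called. The SD of Chic1 was 0.39 in MPPFL+ and 0.46 in MPPFL- but 0.00 in CLP, and the shared spread makes its standard error small.

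Higher in MPPFL+ were Ppp2r3d, a regulatory subunit of protein phosphatase 2A (3.14 to 4.38 in MPPFL- against 8.89, 9.15 and 8.84, adjusted p = 2.65e-06), and Wfdc17, a secreted protein with a whey acidic domain (6.60 to 7.44 against 11.54, 12.61 and 11.75, adjusted p = 1.36e-06). Its relative Wfdc18 was at 2.25 to 2.47 in MPPFL- and at 7.36, 8.24 and 6.93 in MPPFL+, at least 35.8-fold higher (adjusted p = 7.92e-09). The semaphorin Sema3d was at 2.17 to 4.04 against 8.38, 7.93 and 7.15 (adjusted p = 8.9e-09), the ganglioside enzyme St8sia1 at 2.17 to 3.86 against 7.45, 7.93 and 7.29 (adjusted p = 2.55e-05), and the potassium channel subunit Kcng1 at 2.19 to 2.44 against 6.99, 6.59 and 7.18 (adjusted p = 6.47e-10). Cd300lb, a receptor of myeloid cells, rose at least 24.3-fold (adjusted p = 1.55e-08). Camsap2, a microtubule end protein, was at 2.84 to 3.51 in MPPFL-, close to the floor, and at 8.35, 7.88 and 6.82 in MPPFL+ (adjusted p = 7.16e-08). Cap1, an actin regulator, was spread over 12.44, 10.27 and 9.02 in MPPFL+ against 4.71 to 6.80 (adjusted p = 0.00014). The chosen probe set of the lipid kinase Pi4kb rose by 5.08 ± 0.44 while its other probe set was called lower, so no direction can be given for that gene.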

How the data were processed

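The deposited series table holds log2 expression values of 45101 probe sets on 26 arrays, as deposited by the authors, with a floor of 2.17. The normalization that made them and the sort gates are not given in the sources used here. Per the labels' protocols, total RNA was taken with Trizol and labelled cRNA was hybridised by the Affymetrix protocol. Of the probe sets, 34945 are annotated to 1 gene, 932 to several and 9211 to none, and only the first were used, with the probe set of the highest mean over all arrays standing for each of 18193 genes.

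Population means were fitted with limma 3.58.1 (lmFit and eBayes, R 4.3.3) to all 26 arrays, with 18 residual degrees of freedom, and adjusted p-values are Benjamini-Hochberg over all genes. With the 8 arrays of MPPFL- and MPPFL+ fitted alone, 2060 genes were called higher and 933 lower. On simulated data the same fit called 66.0% of changes of 1 log2 unit and 87.0% of changes of 2, with 10 false calls among 18193 genes. The simulated noise was normal and independent between arrays, with no floor and no shift in RNA quality between groups. Only genes with a mean above 5 were changed, so these rates are not error rates for the deposited values. Control measures were compared by exact permutation over the 8 arrays. The number of arrays limits the precision.

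The gene lists were chosen with earlier results of these data known. Genes named are the 15 largest rises and 15 largest falls without overlap of arrays, up to 6 called members of each list in each direction with up to 3 uncalled ones, and fixed markers. Espl1, Kif11 and Cdc20 were added after their values were seen. Promoters are RefSeq windows of GRCm38.p6 for 14452 genes, at the first listed start. Alternatives changed the arrays fitted, the normalization, the choice of probe set, the filter, the variance model, the covariate, the block and the threshold, or left out 1 array. The same omissions for the control measures were added after seeing the data.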

Additional observations from a re-analysis of the deposited data

Results flagged for a closer look

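Of 208 values tested for a lone array among the 5 MPPFL- arrays (named genes, list means and control measures), 18 had 1 array apart from the other 4, where chance gives about 1 in 20. In 10 of the 18 the array was replicate 1.

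MPPFL- replicate 1 was above the others in Runx3 (10.08 against 8.73 to 8.93), Ifngr1 (8.48 against 6.84 to 7.16), Txnip (13.40 against 11.58 to 11.92), Il1r1 (9.31 against 8.24 to 8.48) and Uhrf1 (11.88 against 10.58 to 10.83). It was below them in Gp1bb (3.31 against 6.02 to 7.04), Aqp1 (2.64 against 5.26 to 5.77), Cpa3 (9.65 against 10.96 to 11.09), Spi1 (7.68 against 7.94 to 8.01) and Tgfbr2 (11.77 against 11.97 to 12.04). In 9 of these 10 genes, Spi1 being the exception, replicate 1 was displaced towards the MPPFL+ mean. Over all called genes that were not dim, however, it lay on the MPPFL+ side of the other 4 in 57.3%, against 34.6% to 53.6% for the other arrays.

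Replicate 2 was above the others in Epor (3.22 against 2.18 to 2.46) and in the mean of the mitosis genes (10.11 against 9.83 to 9.90), and below them in Meis1 (13.89 against 14.18 to 14.24). Replicate 3 was above them in Dtx4 (5.21 against 4.52 to 4.67), Cd33 (3.02 against 2.26 to 2.44) and St8sia1 (3.86 against 2.17 to 2.48). Replicate 4 was above them in Ccr9 (3.09 against 2.33 to 2.53) and below them in E2f2 (6.33 against 6.69 to 6.72).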

How the results depend on the processing

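Of 131 called genes named in the text, 109 kept their direction and call under all 16 alternatives run on single genes, and 22 lost the call under at least 1. Many of these genes were chosen for the size of their change, so this share cannot stand for all called genes. The 1931 higher and 955 lower calls became 1042 and 488 with a difference of at least 1, and 3175 and 2317 over single probe sets. Leaving out 1 array gave 1305 to 1986 higher calls and 595 to 914 lower ones, the fewest of both without MPPFL+ replicate 2. The main fit did not pair same-numbered arrays, and the labels do not say whether they belong together. Correlations of their deviations were 0.28 (the highest of any pair), -0.05 and -0.04, and cannot settle this. A fit with the replicate number as a block gave 1203 higher and 611 lower calls. With the mean of all probe sets Cdk6 became 0.60 and was called higher, and Itch became -0.05 and was not called. Without MPPFL+ replicate 3 S100a8 was at -1.78 and called lower, within a range of -1.78 to 0.94 over the fits without 1 array. Among genes not called, 12 were called under at least 1 alternative, and 38 further sign changes came without a call in either fit. Without MPPFL- replicate 2, 3, 4 or 5 the exact permutation p of the actin 3' excess was 0.0571. Values at the floor have no order, and few arrays limit small differences.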
